A study of Mus musculus with 7 samples.

Results

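Lysosomal hydrolases and membrane proteins were followed as 32 genes in cells washed from the airspaces of mouse lungs. The genes were chosen by name, and a gene was kept where its mean normalized count over all libraries was at least 10; all 32 passed, of 12963 genes tested and 16476 in the table. They comprise 9 proteases, 9 glycosidases, 3 sulfatases, 3 lipid hydrolases, 3 activator or granulin precursors and 5 membrane proteins. RNA was sequenced in 3 knockout libraries from C57BL/6 mice of genotype Netrin1loxp/loxp LysM Cre, in which Cre from the lysozyme M locus of myeloid cells acts on floxed alleles of Ntn1, the gene of the secreted guidance protein netrin-1. They were set against 4 control libraries from C57BL/6 mice of genotype LysM Cre, which carry LysM Cre without the floxed alleles; the labels do not give the number of Cre copies in either group. All mice had received lipopolysaccharide, a bacterial cell wall component, into the trachea 3 days before, and neutrophils were depleted from the lavage with antibodies. The comparison asks how transcripts of airspace cells differ when Cre-expressing cells lose Ntn1. The labels leave out whether the libraries of a group are separate mice, so the p-values describe library-to-library spread and that spread may be technical.

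Lysosomes are acidic organelles in which macrophages break down what they take up, including bacteria, dead cells and surfactant. Most soluble lysosomal enzymes are made as precursors, tagged with mannose 6-phosphate in the Golgi and delivered by receptors for that sugar. Each enzyme removes a particular bond, and activator proteins present membrane lipids to the lipid-degrading enzymes. The transcription factor TFEB and its relatives of the MiT family activate many of these genes through a promoter sequence called the CLEAR element.

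Libraries held between 9903284 and 13353733 recovered reads, and a member had between 95 and 86069 reads in a library. Ntn1 had 1, 0 and 1 reads in the knockout libraries and 1, 4, 9 and 3 in the controls, which is too few to check the deletion. Lyz2 (lysozyme M), which shares its locus with the Cre insertion, had 935.9, 1052 and 909.7 normalized counts in the knockouts, and 76927, 770.1, 721.3 and 118781 in control replicates 1 to 4. Control replicates 1 and 4 therefore stand apart from the other 5 libraries in that gene. Whether their Cre genotype differs from that of the other libraries is not given, and its part in the results was not tested, so results are also given without them. Knockout replicate 1 stood apart in neutrophil markers, whose summed level was 66832 normalized counts there, 21693 and 22896 in the other knockouts and between 14843 and 17630 in the controls. It also held 136707 normalized counts of 7 erythroid markers, against 6936 to 10593 in the other knockouts and 1254 to 26210 in the controls.

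Most lysosomal transcripts were less abundant in the knockout libraries. Of the 32 genes, 18 were lower and 2 higher at an adjusted p under 0.05 (limma, Benjamini-Hochberg over all genes tested), where 11.3% of all genes were lower, 10.4% higher and 21.7% either. The median log2 fold change (knockout over control, on log2 of normalized count + 1) was -0.37 over the 32 genes and 0.01 over all genes tested. In 29 of the 32 (90.6%) the fitted change was negative, against 48.1% of all genes. In 20 members every knockout library lay below every control library, and in 2 every knockout library lay above; over all genes these orders held for 16.3% and 17.4%. The reductions were moderate: members called lower stood at between 44.8% and 83.1% of the control mean, 7 of them were lower at least 1.5-fold and 1, Lgmn, at least 2-fold. The exceptions were Arsb and Glb1, which were higher.

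**Figure D1:**
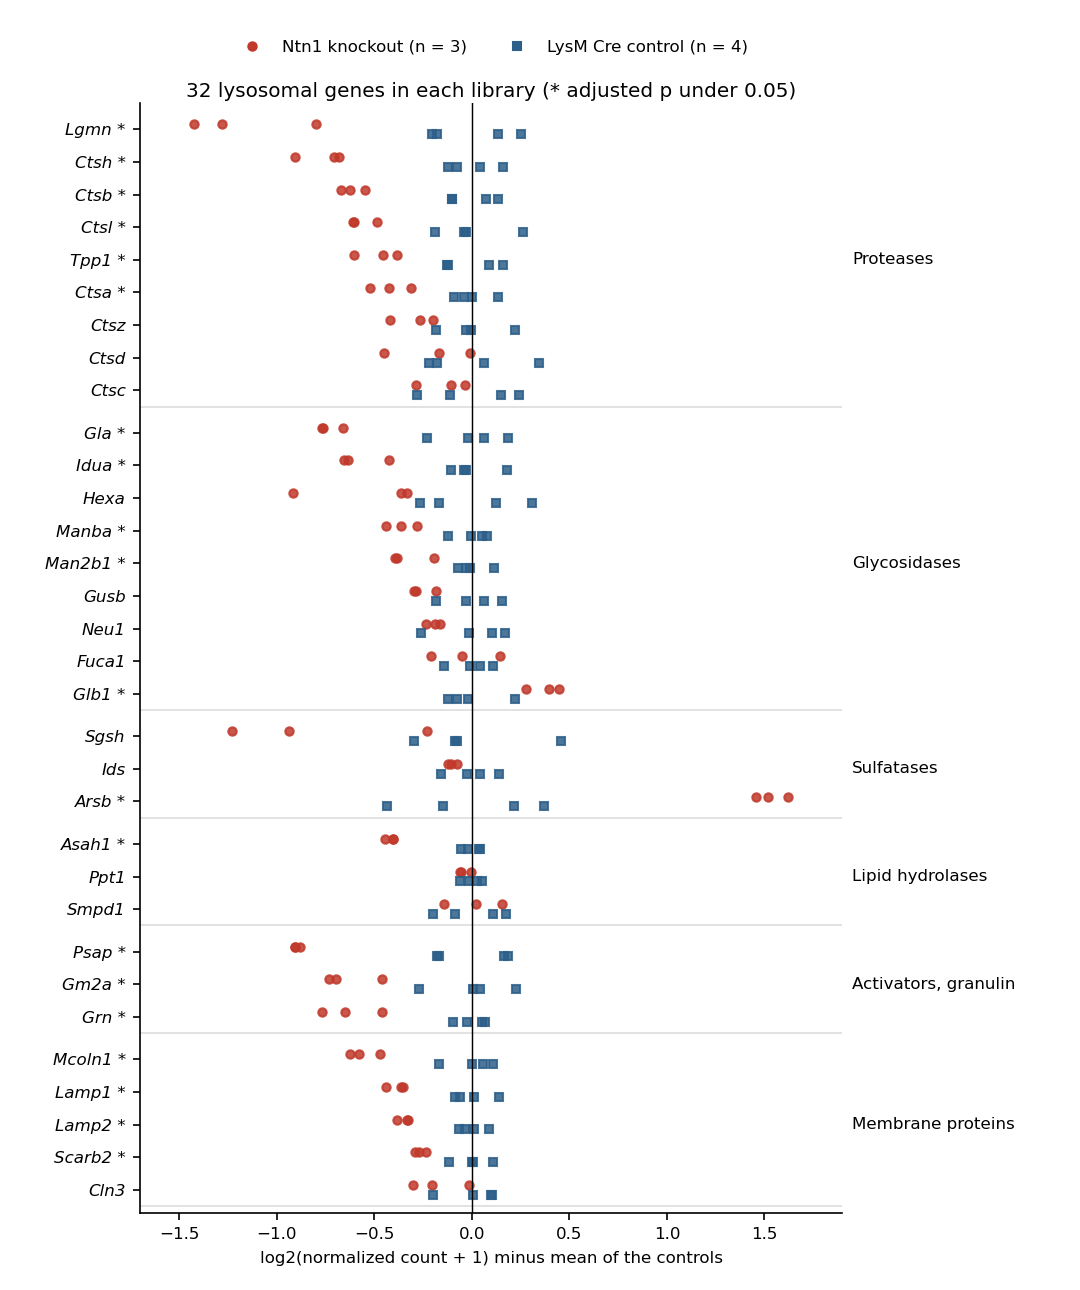
Each row is 1 of the 32 genes, grouped by role, and each point is 1 library; the horizontal axis is log2(normalized count + 1) minus the mean of the 4 controls, with knockouts as circles and controls as squares. Knockout points lie left of the control points in most rows, and far to the right in the row of Arsb.

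The members together took 1.33%, 1.43% and 1.44% of all recovered reads in the knockout libraries, and between 1.87% and 2.17% in the 4 controls. The groups did not overlap. Their summed level was 168395 ± 3288 normalized counts in knockouts (SD, n = 3) and 247260 ± 22223 in controls (SD, n = 4), or 68.1% of the control level. Psap alone made up 24.5% of that sum in knockouts and 31.4% in controls, and without it the remaining 31 genes stood at 74.9% of the control level. Per kilobase of exon, Psap was the most abundant member in both groups (15052 normalized counts per kb in knockouts, 28255 in controls), followed by the proteases Ctsz, Ctsd and Ctsb in both. Over both groups its level per kilobase ranked 15 among 12950 genes with a known length. Arsb, which removes sulfate from dermatan and chondroitin sulfate, had rank 24 of the 32 in knockouts (230.1 per kb) and rank 30 in controls (81.2 per kb).

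Because many members were lower together, the promoters of 6 of them are shown, with matches to the core of the CLEAR element or to the E-box within it in capitals; none of the 6 holds the full element. They were picked to show windows with and without matches, not as a sample of the members. The letters searched were CACGTG (the E-box), TCACGTGA (the core of the CLEAR element) and the full element, which is that core with G before and C after; each reads the same on both strands, and every longer match contains the shorter ones. Windows run from 250 bases before to 50 after the start of the gene (RefSeq, GRCm38.p6, 5′ to 3′ on the strand of the gene), and 29 of the 32 members had an entry. Those of Gla (chrX:134600956-134601255, minus strand), Mcoln1 (chr8:3500269-3500568, plus strand) and Lamp1 (chr8:13158911-13159210, plus strand), all lower in knockouts, hold 2 or more matches each. That of Glb1 (chr9:114400828-114401127, plus strand), higher in knockouts, holds 1 E-box, and those of Psap (chr10:60277378-60277677, plus strand) and Arsb (chr13:93771429-93771728, plus strand), which were lower and higher, hold none.
Gla: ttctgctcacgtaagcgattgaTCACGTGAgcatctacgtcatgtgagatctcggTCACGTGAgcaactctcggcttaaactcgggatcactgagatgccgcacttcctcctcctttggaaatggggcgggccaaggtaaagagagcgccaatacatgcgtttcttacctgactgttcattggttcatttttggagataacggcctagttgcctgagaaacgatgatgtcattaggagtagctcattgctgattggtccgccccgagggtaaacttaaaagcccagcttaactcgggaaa
Mcoln1: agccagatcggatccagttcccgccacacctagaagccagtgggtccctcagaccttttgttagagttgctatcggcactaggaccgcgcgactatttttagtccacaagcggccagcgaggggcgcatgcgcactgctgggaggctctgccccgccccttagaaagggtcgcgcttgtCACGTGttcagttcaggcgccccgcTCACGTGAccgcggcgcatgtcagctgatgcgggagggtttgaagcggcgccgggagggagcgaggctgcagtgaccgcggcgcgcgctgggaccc
Lamp1: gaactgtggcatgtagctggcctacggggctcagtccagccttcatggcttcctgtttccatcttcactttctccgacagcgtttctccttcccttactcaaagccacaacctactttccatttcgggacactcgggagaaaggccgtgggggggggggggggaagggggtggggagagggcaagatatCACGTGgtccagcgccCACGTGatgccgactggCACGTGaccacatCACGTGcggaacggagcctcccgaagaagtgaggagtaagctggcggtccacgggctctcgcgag
Glb1: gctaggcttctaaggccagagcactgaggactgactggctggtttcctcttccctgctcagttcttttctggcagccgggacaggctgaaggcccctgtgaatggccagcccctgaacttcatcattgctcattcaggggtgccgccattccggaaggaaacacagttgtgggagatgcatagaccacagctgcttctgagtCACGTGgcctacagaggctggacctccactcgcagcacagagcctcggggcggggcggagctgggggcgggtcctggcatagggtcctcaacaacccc
Psap: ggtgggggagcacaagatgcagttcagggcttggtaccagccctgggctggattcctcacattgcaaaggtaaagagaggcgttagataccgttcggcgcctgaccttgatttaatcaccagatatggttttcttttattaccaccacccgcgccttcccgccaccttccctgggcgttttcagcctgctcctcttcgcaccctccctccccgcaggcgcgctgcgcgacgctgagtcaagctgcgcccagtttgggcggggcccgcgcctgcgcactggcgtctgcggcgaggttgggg
Arsb: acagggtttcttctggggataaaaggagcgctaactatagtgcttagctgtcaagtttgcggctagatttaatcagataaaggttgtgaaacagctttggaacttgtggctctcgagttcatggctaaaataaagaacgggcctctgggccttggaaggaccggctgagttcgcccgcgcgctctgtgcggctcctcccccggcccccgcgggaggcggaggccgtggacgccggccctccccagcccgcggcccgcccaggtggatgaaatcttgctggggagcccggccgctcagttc

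The core TCACGTGA was in a window of 5 of the 29 members (Cln3, Ctsa, Ctsd, Gla and Mcoln1), or 17.2%, and in 2.23% of 9536 tested genes with an entry. The E-box was in 10 of the 29 (34.5%) and in 11.8% of tested genes, and the full element in 1 member (Cln3) and in 0.828% of tested genes. The core was in 3 of the 15 members called lower that had an entry, and in 2 of the other 14 members. The E-box was in 6 of those 15 and in 4 of the other 14. Cln3, which holds the full element, was not called. A match describes the letters in the window and shows no binding. The element is described above as acting in many of these genes, so a higher share among members than among tested genes was given beforehand.

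Among the proteases 6 of 9 were lower and none higher, where 11.3% of all genes were lower and 10.4% higher. Legumain (Lgmn), which cuts after asparagine and processes cathepsins, lies on GRCm38 chromosome 12 from 102394084 to 102439813. It had 2332, 1512 and 1669 normalized counts in the knockouts and 3590, 3527, 4841 and 4459 in the controls (log2 fold change -1.17, SE 0.17, adjusted p = 0.00253, limma). The highest knockout, replicate 1, lay 1194 below the lowest control, and the fall was the largest of all 32 members. Ctsh, an aminopeptidase cathepsin that matures surfactant proteins, had 4392, 3811 and 4463 in knockouts and 7360, 6568, 6798 and 7998 in controls (log2 fold change -0.77, SE 0.09, adjusted p = 0.00148, limma). Ctsb, an abundant cysteine protease, had 22175, 21456 and 23382 in knockouts and 37482, 31848, 31905 and 35937 in controls (log2 fold change -0.62, SE 0.11, adjusted p = 0.00547, limma). In both genes the groups were well apart. Exons of Ctsb overlap 774 bases of Fdft1 on the opposite strand, a sterol synthesis gene that was higher in knockouts (log2 fold change 0.46). The sources used here do not give the strand setting of the counting, and 14 of the 32 members share exon bases with another gene.

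Ctsl, a cysteine protease that also processes the invariant chain, had 2563, 2356 and 2352 normalized counts in knockouts and 3482, 3508, 4304 and 3150 in controls (log2 fold change -0.57, SE 0.10, adjusted p = 0.0071, limma). Tpp1, a tripeptidyl peptidase, had 1995, 2209 and 2323 in knockouts and 3389, 2773, 2783 and 3223 in controls (log2 fold change -0.48, SE 0.09, adjusted p = 0.00927, limma). Ctsa, the protective carboxypeptidase that stabilizes Glb1 and Neu1 in a complex, had 4465, 4774 and 5172 in knockouts and 7046, 6015, 6235 and 6427 in controls (log2 fold change -0.42, SE 0.08, adjusted p = 0.00938, limma). No knockout library reached a control library in these 3 genes. Ctsa shares 495 exon bases with Pltp, a lipid transfer protein gene on the opposite strand that was also lower (log2 fold change -0.67). The remaining 3 proteases did not pass. Ctsz, a carboxypeptidase, did not reach the threshold (log2 fold change -0.30, SE 0.11, adjusted p = 0.086, limma), with knockouts between 9722 and 11357 and controls between 11469 and 15167. Ctsd, the main aspartic protease, had a log2 fold change of -0.21 (95% interval -0.57 to 0.15), and Ctsc, which activates the serine proteases of granules, one of -0.14 (95% interval -0.45 to 0.17). In Ctsd and Ctsc the groups overlapped. The log2 fold change of Ctsb, -0.62, lies outside both intervals, but its own 95% interval (-0.86 to -0.38) overlaps both. Whether these genes differ in their change was not tested.

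**Figure D2:**
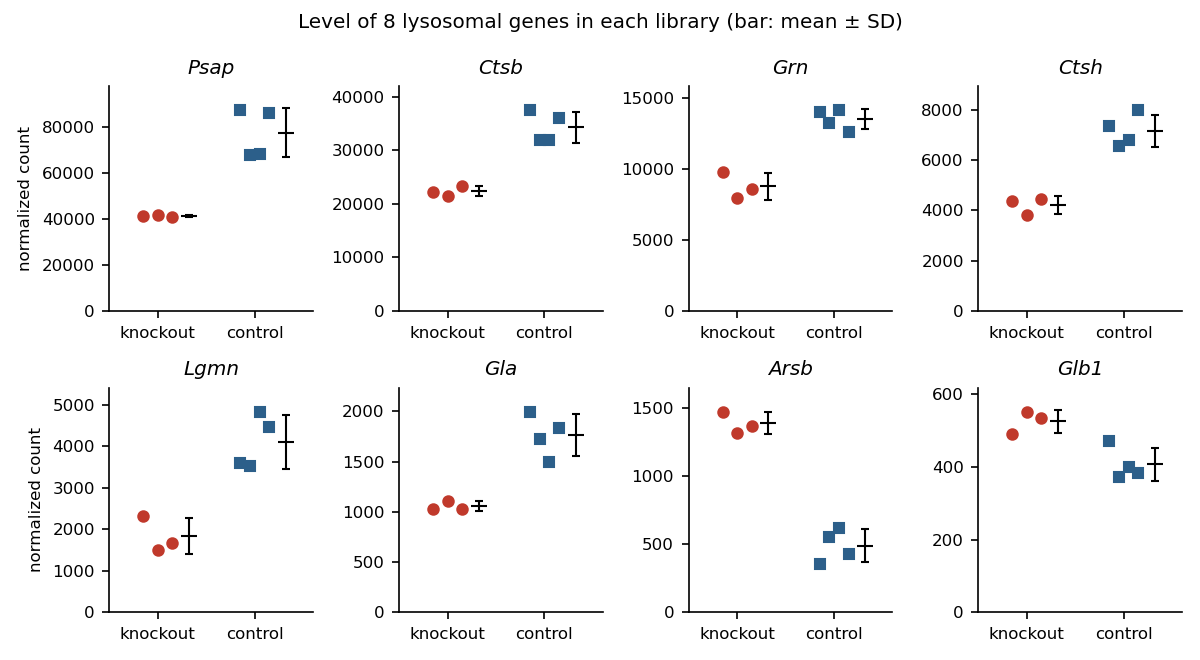
Normalized counts of 8 members in each library, knockouts on the left and controls on the right of each panel, with the mean ± SD beside the points; each vertical axis starts at 0. Psap, Ctsb, Grn, Ctsh, Lgmn and Gla lie lower in all 3 knockouts than in all 4 controls, and Arsb and Glb1 lie higher.

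Of the glycosidases 4 of 9 were lower, where 11.3% of all genes were. The 1 that was higher, Glb1, is 11.1% of the class, near the 10.4% of all genes. Gla, alpha-galactosidase A, which removes the end galactose of globotriaosylceramide (chromosome X, 134588149 to 134601125), had 1029, 1111 and 1033 normalized counts in knockouts and 1999, 1730, 1499 and 1836 in controls (log2 fold change -0.73, SE 0.10, adjusted p = 0.00195, limma). Its knockout libraries lay within a narrow band, 388 below the lowest control. Idua, the iduronidase of heparan and dermatan sulfate breakdown, had 348.8, 343.2 and 402.9 in knockouts and 613.4, 526.4, 503.6 and 530.4 in controls (log2 fold change -0.57, SE 0.09, adjusted p = 0.00473, limma). Manba and Man2b1, the mannosidases that trim the sugar chains of glycoproteins, were lower, Manba with -0.36 in log2 units (SE 0.08, adjusted p = 0.0117, limma) and Man2b1 with -0.33 (SE 0.08, adjusted p = 0.0191, limma). Manba had 641.9, 574.0 and 605.3 in knockouts and 775.9, 716.3, 821.3 and 808.8 in controls. Man2b1 had 3447, 3005 and 3025 in knockouts and 3863, 3763, 4265 and 3924 in controls. In these genes too the groups did not overlap. The call of Man2b1 was lost without knockout replicate 2 or 3, with an adjusted p of up to 0.105 over all alternatives, and that of Manba without knockout replicate 2, with one of up to 0.0829.

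Glb1, the lysosomal beta-galactosidase (chromosome 9, 114401076 to 114474898), had 491.8, 552.9 and 534.8 normalized counts in knockouts and 473.3, 372.8, 400.0 and 385.0 in controls (log2 fold change 0.37, SE 0.10, adjusted p = 0.0276, limma). The gap between the groups was 18.5 normalized counts, set by knockout replicate 1 and control replicate 1. The call was lost when either of knockout replicates 2 and 3 or any of control replicates 2, 3 and 4 was left out, with an adjusted p of up to 0.159 over all alternatives. Tmppe, which shares 165 exon bases with Glb1 on the same strand, was lower in knockouts (log2 fold change -0.54). Hexa, the alpha subunit of beta-hexosaminidase, had 1932, 2901 and 2846 in knockouts and 4532, 3257, 3038 and 3983 in controls and did not pass (log2 fold change -0.54, SE 0.18, adjusted p = 0.0602, limma). Its groups did not overlap, but knockout replicate 1 lay far below the other 2 knockouts. Gusb, the glucuronidase, had -0.26 in log2 units (SE 0.09, adjusted p = 0.0669, limma). The log2 fold change was -0.20 for Neu1, a sialidase (95% interval -0.43 to 0.03), and -0.04 for Fuca1, a fucosidase (95% interval -0.26 to 0.18). None of these 3 passed, and their groups overlapped.

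Of the sulfatases 1 of 3 was higher and none lower, where 10.4% of all genes were higher and 11.3% lower. A class of 3 genes is too small to set against these shares. Arsb (chromosome 13, 93771630 to 93943016) had 1476, 1317 and 1374 normalized counts in knockouts and 353.4, 556.8, 618.6 and 431.4 in controls (log2 fold change 1.53, SE 0.17, adjusted p = 0.00114, limma). The lowest knockout lay 698.6 above the highest control, and the knockout mean was 2.83 times the control mean. Psap had 27.8, 31.7 and 29.9 times the normalized count of Arsb in knockouts, and 247.3, 122.2, 110.7 and 199.8 times in controls. Exons of Arsb overlap those of 2 noncoding genes on the opposite strand (Gm26527 over 1948 bases and Gm47210 over 463), which have no value here. Sgsh, the sulfamidase of heparan sulfate, had 183.5, 91.3 and 112.0 in knockouts and 203.1, 175.2, 296.5 and 204.4 in controls, with overlap of the groups (log2 fold change -0.80, SE 0.25, adjusted p = 0.0508, limma). It passed under 4 of the 21 alternatives, which were no filter on low values, DESeq2, voom with library weights, and the fit without knockout replicate 1. Ids, the iduronate sulfatase, had a log2 fold change of -0.10 (95% interval -0.28 to 0.07) and did not pass.

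The neighbours of Arsb on chromosome 13 were looked at after its value had been seen. Within 1000000 bases of the gene 11 other genes were tested, of which 6 were lower and none higher, where 11.3% of all genes were lower and 10.4% higher. With so few genes, a count of 0 higher is near that share. Lhfpl2, the next tested gene downstream, had the largest change of these (log2 fold change -1.32, SE 0.18, adjusted p = 0.00231, limma; mean 1270 in knockouts and 3154 in controls), and Jmy, the next upstream, one of -0.67 (SE 0.12, adjusted p = 0.00752, limma; mean 248.2 in knockouts and 391.5 in controls).

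**Figure D3:**
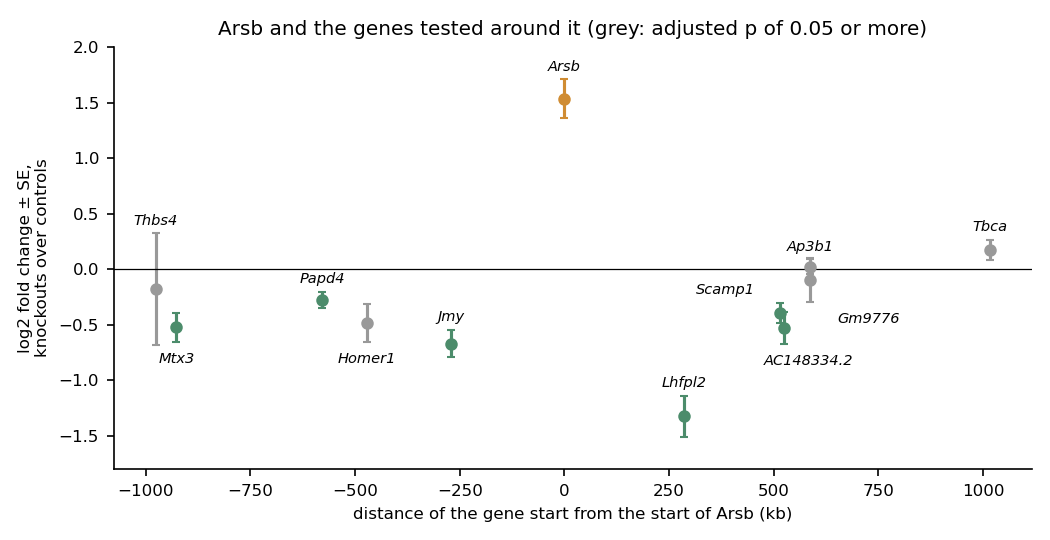
Log2 fold change with its SE for Arsb and the 11 tested genes around it, against the distance between gene starts in kilobases. Arsb, at 1.53, stands alone above 0.5, and the 6 genes called lower lie on both sides of it.

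The activator and granulin precursors were all lower, 3 of 3, where 11.3% of all genes were. Psap, the precursor of the 4 saposins that activate sphingolipid hydrolases (chromosome 10, 60277627 to 60302597), had 41102, 41710 and 41097 normalized counts in knockouts and 87414, 68015, 68498 and 86199 in controls (log2 fold change -0.90, SE 0.14, adjusted p = 0.00402, limma). The knockouts were nearly equal, with a coefficient of variation of 0.853% against 13.8% in controls. Gm2a, which presents ganglioside GM2 to beta-hexosaminidase, had 3095, 2557 and 2625 in knockouts and 4270, 3523, 4374 and 4981 in controls (log2 fold change -0.63, SE 0.12, adjusted p = 0.00833, limma). Grn, the precursor of the granulins, had 9799, 7927 and 8613 in knockouts and 14019, 13282, 14157 and 12610 in controls (log2 fold change -0.63, SE 0.09, adjusted p = 0.00323, limma). In each of the 3 genes the groups were separate.

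Of the 3 lipid hydrolases 1 was lower and none higher, where 11.3% of all genes were lower, and 3 genes are too few to set against that share. The gene that passed was Asah1, the acid ceramidase. It had 3690, 3582 and 3686 normalized counts in knockouts and 5004, 4691, 5015 and 4810 in controls (log2 fold change -0.42, SE 0.06, adjusted p = 0.00293, limma), with little spread within either group. Ppt1, which removes palmitate from proteins, had a log2 fold change of -0.04 (95% interval -0.18 to 0.10), with 2698 to 2811 in knockouts and 2702 to 2918 in controls. Smpd1, the acid sphingomyelinase, had one of 0.01 (95% interval -0.26 to 0.28), with 228.6 to 280.8 in knockouts and 219.4 to 285.4 in controls. The intervals of Ppt1 and Smpd1 leave out a fall as large as that of Asah1.

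Membrane proteins were lower in 4 of 5 genes, where 11.3% of all genes were lower. Mcoln1, a calcium channel of the lysosomal membrane, had 518.2, 501.9 and 557.4 normalized counts in knockouts and 805.4, 833.7, 688.5 and 774.9 in controls (log2 fold change -0.56, SE 0.08, adjusted p = 0.00312, limma). Lamp1 and Lamp2, the main glycoproteins of that membrane, were lower, Lamp1 with -0.39 in log2 units (SE 0.08, adjusted p = 0.0133, limma) and Lamp2 with -0.35 (SE 0.07, adjusted p = 0.00988, limma). Lamp1 had 8660, 9208 and 9147 in knockouts and 12948, 11264, 11069 and 11836 in controls. Lamp2 had 6417, 6188 and 6446 in knockouts and 8579, 7897, 7725 and 8151 in controls. Scarb2, the receptor that carries glucocerebrosidase to the lysosome, had the smallest called change (log2 fold change -0.27, SE 0.07, adjusted p = 0.0284, limma), with 3402, 3271 and 3317 in knockouts and 4017, 4006, 4319 and 3695 in controls. The groups of these 4 genes did not overlap. The call of Scarb2 was lost under 10 of the 21 alternatives, among them those without knockout replicate 2 or 3 or control replicate 1, 2 or 3, with an adjusted p of up to 0.146. Cln3, a membrane protein lacking in juvenile Batten disease, did not pass (log2 fold change -0.17, 95% interval -0.40 to 0.05) and its groups overlapped.

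Spread within groups differed between members. The median coefficient of variation was 6.67% in knockouts and 9.69% in controls, and 23 of the 32 genes varied less among knockouts. Sgsh varied most in knockouts (37.5%) and Arsb in controls (24.5%). At an adjusted p under 0.05 the authors' deposited table has a negative log2 fold change for 20 members and a positive one for 2. These were the 20 genes called here, together with Hexa (adjusted p = 0.0231 in the authors' deposited table) and Sgsh (adjusted p = 0.0221 in the authors' deposited table).

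Control replicates 1 and 4 both exceeded replicates 2 and 3 in 14 of the 32 members (43.8%), against 21.1% of all genes. Both lay below them in 2 members (6.25%), Ctsl and Arsb, against 19.9% of all genes. Without control replicates 1 and 4, against the 2 controls with Lyz2 near the knockout level, 10 members were lower and 2 higher, where 4.37% of all genes were lower and 4.81% higher. Those lower were Psap, Ctsb, Ctsh, Ctsl, Lgmn, Gla, Idua, Grn, Asah1 and Mcoln1, and Arsb and Glb1 were higher. The log2 fold change was then -0.72 for Psap, -1.19 for Lgmn and 1.24 for Arsb. Without control replicates 2 and 3 instead, 16 members were lower and 1, Arsb, higher, where 4.8% and 4.82% of all genes were; Psap then had -1.07, Lgmn -1.15 and Arsb 1.83. All 20 called members had the same sign against either pair. This was fixed beforehand, because in each of them the knockout and control libraries did not overlap. Without knockout replicate 1, 19 members were lower and 2 higher.

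**Figure D4:**
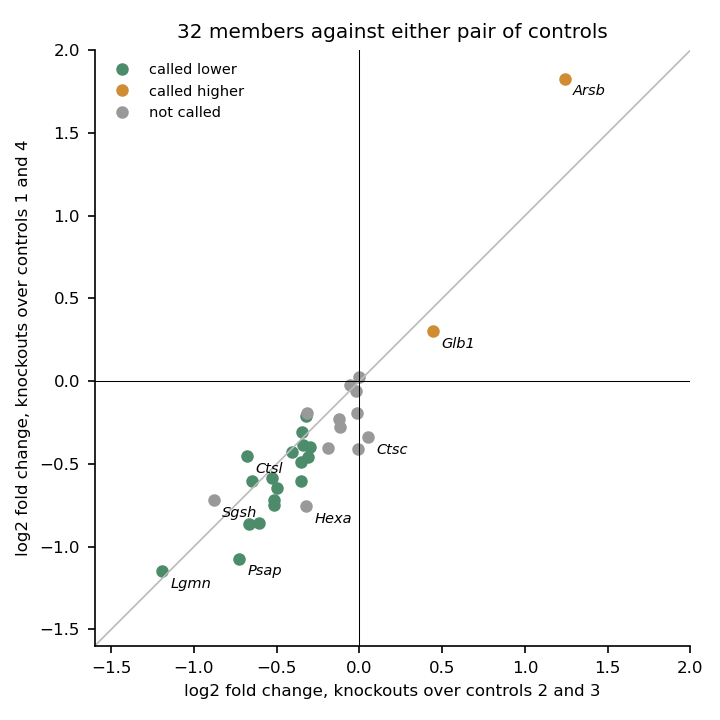
Log2 fold change of each of the 32 members with knockouts set against control replicates 2 and 3 (horizontal axis) and against control replicates 1 and 4 (vertical axis); the diagonal marks equal values, and colours give the call over all 7 libraries. Every called member keeps its sign, as it must where the groups do not overlap. Psap and Arsb lie farther from 0 against controls 1 and 4. Both axes use the same 3 knockout libraries.

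Of 89 other lysosome genes in 5 lists, 31 (34.8%) were lower and 3 (3.37%) higher, where 11.3% of all genes were lower and 10.4% higher. Of 30 other hydrolases and luminal proteins 12 (40%) were lower and none higher (median log2 fold change -0.31). Scpep1, a serine carboxypeptidase, had 1417, 1279 and 1355 normalized counts in knockouts and 2154, 2229, 2009 and 2196 in controls (log2 fold change -0.67, SE 0.07, adjusted p = 0.000672, limma). Plbd2, a phospholipase B-like protein, and Galc, which removes galactose from galactosylceramide, were lower with log2 fold changes of -0.46 and -0.52. Of 24 other membrane proteins 9 (37.5%) were lower and 2 (8.33%) higher (median -0.36), the latter near the share of all genes. Npc1, which moves cholesterol out of the lysosome, Cd68, a macrophage lysosomal glycoprotein, and Slc17a5, which exports sialic acid, were lower by log2 fold changes of -0.53, -0.59 and -0.69. Laptm5, a lysosomal protein of blood cells, was higher, with 14157, 14336 and 13142 in knockouts and 10988, 10252, 10369 and 9622 in controls (log2 fold change 0.43, SE 0.08, adjusted p = 0.0079, limma), as was the peptide transporter Abcb9 (0.75).

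Of 18 subunits of the V-ATPase, the proton pump that acidifies lysosomes, 4 (22.2%) were lower and none higher. Of all genes 11.3% were lower and 10.4% higher. The median log2 fold change of the subunits was -0.14, with Tcirg1 at -0.48, Atp6v1a at -0.39 and Atp6v1h at -0.27. Of 13 genes of mannose 6-phosphate tagging and sorting 5 (38.5%) were lower and 1 (7.69%) higher (median -0.19), the latter near the share of all genes. Igf2r, a mannose 6-phosphate receptor, had 3884, 3709 and 5110 normalized counts in knockouts and 6467, 6547, 6162 and 6818 in controls (log2 fold change -0.63, SE 0.11, adjusted p = 0.00612, limma). Vps26a, a retromer subunit, had -0.31, and Sumf1, which activates sulfatases such as Arsb, had -0.32. Gnptg, a subunit of the phosphotransferase that makes the tag, was higher (0.58, SE 0.08, adjusted p = 0.00225, limma), with 346.8, 370.2 and 327.0 in knockouts and 226.5, 239.7, 234.5 and 225.7 in controls. Of the 4 MiT factors 1 was lower and none higher, too few genes to set against the shares of all genes. This was Mitf (log2 fold change -0.75, SE 0.13, adjusted p = 0.0068, limma), with 596.2, 665.3 and 798.6 in knockouts and 1205, 1127, 941.6 and 1344 in controls. Tfeb, Tfe3 and Tfec did not pass.

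**Figure D5:**
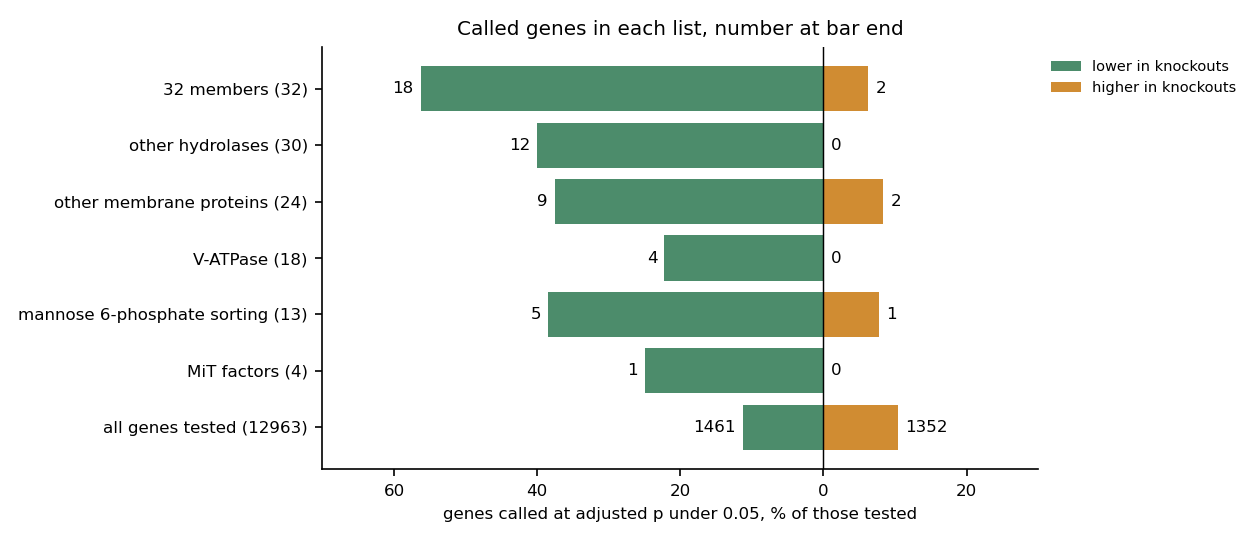
Share of genes called lower (left of 0) and higher (right of 0) in knockouts, in percent of the genes tested, for the 32 members, 5 lists of other lysosome genes and all genes; numbers at the bar ends are gene counts and those in brackets the genes tested. The members have 18 lower and 2 higher, against 1461 and 1352 of 12963 genes.

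Markers of several cell types also differed between the groups, some lists lower and others higher in knockouts. In these bulk samples fewer cells of a type and less RNA per cell cannot be told apart. Of all genes 11.3% were lower and 10.4% higher. Of 15 markers of monocytes and recruited macrophages 9 (60%) were lower and 1 (6.67%) higher. Their summed level was 36258 to 48666 normalized counts in knockouts and 54236 to 69230 in controls. Of 14 markers of resident alveolar macrophages none passed in either direction (2 had an unadjusted p under 0.05, limma). Their sums overlapped (78691 to 132368 in knockouts and 64599 to 102043 in controls). Chil3 made up most of these sums, with 65274 to 105895 in knockouts and 49994 to 78990 in controls. The fitted change was positive in 12 of the 14 and negative in 2 (median log2 fold change 0.25), where 48.1% of all genes were negative. All 10 natural killer cell markers were higher, with sums of 48517 to 54313 in knockouts and 10394 to 16665 in controls. Of 10 neutrophil markers 5 were higher, and of 9 epithelial markers 6, with epithelial sums of 809.4 to 1155 in knockouts and 452.2 to 547.4 in controls. Sums of the 10 T cell markers overlapped (4719 to 6905 in knockouts and 4727 to 5751 in controls). Of the 10, 1 was higher, near the 10.4% of all genes. Of 7 dendritic cell markers 6 could be tested and 1 was higher (sums 1445 to 2573 in knockouts and 833.8 to 1272 in controls). Of 6 B cell markers 3 could be tested and 1 was higher (sums 533.0 to 833.5 in knockouts and 392.9 to 549.2 in controls). In both lists the count rests on 1 gene and is too small to set against the share of all genes. None of the 7 erythroid markers passed (0 had an unadjusted p under 0.05, limma), and no marker with a value was at 0 in all libraries. The part of any of these cell types in the lysosomal differences was not tested.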

How the data were processed

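RNA of lavage cells was analysed in 3 knockout and 4 control libraries, by title. Trizol RNA went into KAPA mRNA libraries, per the labels' protocols. The submitters' processing notes name GRCm38 (mm10) and the tools STAR 2.5.3a, cutadapt 1.15, DESeq2 and HTSeq; strand setting and annotation were not found in the sources used. The signal that the authors deposited for a library is its gene counts over a size factor. Per the file headers, that table also holds the authors' log2 fold change, a test statistic as a score, and p-values. Values were whole multiples of 1 step per library (100% whole within 0.01), so whole reads were recovered; a count of 0 allows up to 3 reads, or 2.65 to 3.76 normalized counts, counting error only. edgeR on these reads called 1365 genes higher and 1497 lower.

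limma 3.58.1 in R 4.3.3 (eBayes with trend) was fitted on log2(normalized count + 1), which understates the change of low genes, for 12963 genes with a mean of at least 10. P-values were adjusted by Benjamini-Hochberg over all of them. Alternatives used edgeR 4.0.16 and DESeq2 1.42.0. All tools were tested on simulated data. Replicates differed by a chi-square of 8.51 to 35.5 per gene, so none were copies. Positions and exon lengths came from GENCODE M21 on GRCm38, which held 99.8% of identifiers; 21 symbols turned into dates were restored. Per-library values are given for every called member, and up to 3 called genes per direction, those with the smallest p, are named from each list of other lysosome genes; other values of uncalled members, and the neighbours of Arsb, were chosen after the values were seen. The members and all lists were chosen with earlier results of these data known.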

Additional observations from a re-analysis of the deposited data

How the results depend on the processing

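No called member changed sign under any of the 21 alternatives. Where libraries were left out this could not happen, because the groups of every called member did not overlap. Of the 20 calls, 7 (Arsb, Asah1, Ctsh, Ctsl, Gla, Grn and Lgmn) held under all alternatives. Other scalings, pseudocounts, filters and tools left 17 to 22 members lower and 2 higher; voom with library weights called 7 V-ATPase subunits lower. The median over all genes moved by less than 0.1 under every scaling. Same-numbered libraries did not deviate together (r of -0.23, -0.03 and -0.19 by title number, and -0.08, -0.29 and 0.08 by column number). No knockout library correlated best with the control of its own number. With so few libraries these values cannot exclude a pairing. With the title number as a replicate block, in which control replicate 4 has no partner and does not bear on the difference, 7 members were lower and 1 higher (all genes 382 lower and 424 higher; other hydrolases 5 lower, other membrane proteins 2 lower and 0 higher, V-ATPase 1 lower, sorting 0 lower, MiT factors 0 lower). With the column number as a replicate block, in which control replicate 1 has no partner, 10 members were lower (all genes 605 lower and 591 higher; other hydrolases 4 lower, V-ATPase 1, sorting 1). Without control replicates 1 and 4, 10 members were lower (all genes 567 lower and 624 higher; other hydrolases 5 lower, V-ATPase 1, other membrane proteins 5, sorting 0, MiT factors 0). Without control replicates 2 and 3, 1 member was higher (all genes 620 lower and 622 higher; other membrane proteins 0 higher, sorting 3 lower). The cause of these differences was not tested; both blocks and both pairs leave fewer residual degrees of freedom. With single libraries left out, 15 to 19 members were lower and 1 to 2 higher, 820 to 1303 of all genes lower and 695 to 1172 higher; V-ATPase had 2 to 6 lower, other membrane proteins 1 to 2 higher and sorting 3 to 5 lower. The lowest all-gene counts came without knockout replicate 2 (820 lower, 695 higher), and counts more than 1.5 times lower than with all libraries also came without control replicate 2 (913 lower, 892 higher) or 4 (904 lower, 898 higher). V-ATPase had 2 lower without knockout replicate 2, control replicate 1 or control replicate 2; sorting had 3 without knockout replicate 1 or control replicate 1, 2 or 4; 1 member was higher without knockout replicate 2 or 3 or control replicate 2, 3 or 4. Only uncalled members changed sign: Smpd1 was -0.0020 with edgeR, -0.0034 with DESeq2, -0.056 with the title block, -0.0011 without control replicates 1 and 4, and between -0.060 and 0.088 with single libraries left out; Fuca1 was between -0.13 and 0.045 with single libraries left out; Ctsc was 0.054 without control replicates 1 and 4. Sgsh has the fewest reads, 95 in 1 library, and a coefficient of variation of 37.5% in knockouts; the part of depth in that spread was not tested.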

Other observations

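In 12 of the 32 members (Psap, Ctsz, Lamp2, Ctsa, Ctsb, Hexa, Tpp1, Gla, Lamp1, Ctsh, Idua and Arsb) control replicates 2 and 3 both lay between all knockout libraries and both control replicates 1 and 4. The same order held for 7.37% of all genes tested. This order can occur only where knockouts and controls do not overlap. That was so in 20 members with knockouts lower and 2 with knockouts higher, against 16.3% and 17.4% of all genes. The 2 shares of this order therefore differ in part through the group difference already given. The order was noticed after the values were seen, and the libraries were set apart by their Lyz2 level, so no test is given.

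Enzymes and activators of 1 degradation route did not all share a direction. Of those that act on dermatan sulfate, Arsb was higher and Idua lower, while Ids and Gusb did not pass. Of those that act on the gangliosides GM1 and GM2, the enzyme Glb1 was higher and the activator Gm2a lower, while the enzyme subunit Hexa did not pass. The call of Glb1 was lost under 7 of the 21 alternatives. The normalized count of Hexa was 3.93, 5.25 and 5.32 times that of Glb1 in knockouts, and 9.58, 8.74, 7.60 and 10.3 times in controls, without overlap.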
